A study of Bos taurus with 30 samples.

Results

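Skin of tick-resistant cattle 48 h after tick infestation was compared with skin of tick-resistant cattle before infestation (0 h). The arrays were chosen by their titles, 5 for each time, which makes 10 of the 30 arrays of the series. All animals came from an F2 population bred from Bos indicus (Gyr) and Bos taurus (Holstein) cattle, and the labels called 6 of the 13 animals resistant and 7 susceptible. The 0 h group was untreated skin, and the 48 h group was skin from a tick feeding site of animals that had carried ticks for 48 h. Per the series' design text, each animal was biopsied at 0 h, 24 h and 48 h, so time under ticks and the earlier biopsies cannot be told apart. Age, sex, the tick species and the way resistance was scored are not given in the sources used here. Each array read the RNA of a whole biopsy, so fewer cells of a type and less RNA per cell cannot be told apart in any value below.

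Ticks feed by cutting into the dermis and secreting saliva into the wound, where macrophages, mast cells, granulocytes and T cells gather and complement is activated. Complement is a cascade of blood and tissue proteins that tags foreign surfaces, and class I and class II molecules present peptides to T cells. The epidermis above the wound is held together by desmosomes, cadherins, tight junctions and gap junctions.

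Levels are given as log2 signal, and differences are log2 units, 48 h minus 0 h, with the standard error (SE) of a limma fit. Array medians lay between 7.17 and 7.35 at 0 h and between 7.22 and 7.39 at 48 h. With 5 arrays a group, precision is limited. The keratinocyte markers KRT5 (14.39 ± 0.15 SD, n = 5) and KRT14 (14.02 ± 0.17 SD, n = 5) gave high signal at 0 h. Of 10 red blood cell genes looked for, 0 had a kept probe set. Along the first principal component of all 30 arrays, the 48 h array with animal number 01 lay at 65.6 and the other 48 h arrays between -10.2 and 27.4, against -31.9 to 9.74 at 0 h (exact permutation p = 0.206, two-sided). The 3' minus 5' difference of the actin controls, which grows as RNA is broken or shortened, was 1.92 to 3.43 at 0 h and 1.16 to 4.86 at 48 h (exact permutation p = 0.175). Where leaving out 1 array moved a difference or list median given here by over 1.5 times, it is given also without the array that moved it most.

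The animal numbers in the titles did not hold up as pairs. Over 100 probe sets that differed between animals at 24 h and 48 h, the 0 h arrays 01 and 02 lay nearest to the later arrays of their own number, at distances of 0.93 and 0.85. The 0 h array 03 lay 3.06 from the later arrays numbered 03 and 0.76 from those numbered 04. In the same way 04 lay nearest to 05 (0.77, against 1.74 to its own number) and 05 nearest to 06 (0.82, against 3.25). XIST, the RNA that coats the inactive X chromosome in females, read 1.996 and 5.64 in 0 h arrays 03 and 04 and at least 11.1 in the other 0 h arrays. At 48 h XIST was low in array 05 only (4.74), and it was high in array 03 (11.5). At 24 h the low arrays were 04 (4.32) and 05 (4.83). TYRP1, an enzyme of melanin synthesis, read 12.8 in 0 h array 03 but 7.001 in 48 h array 03, and it read 2.61 in 0 h array 05 and 1.09 in 48 h array 06. The groups were therefore compared first without pairing. A fit in which every animal has its own term was made with the numbers as given and with 0 h numbers 03, 04 and 05 moved to 04, 05 and 06, which gives 4 animals with both times. Both fits use the same arrays, the given numbers did not hold for 3 of them, and the moved numbers were read from these data. A gene that passed in both was therefore not tested independently a second time.

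**Figure D1:**
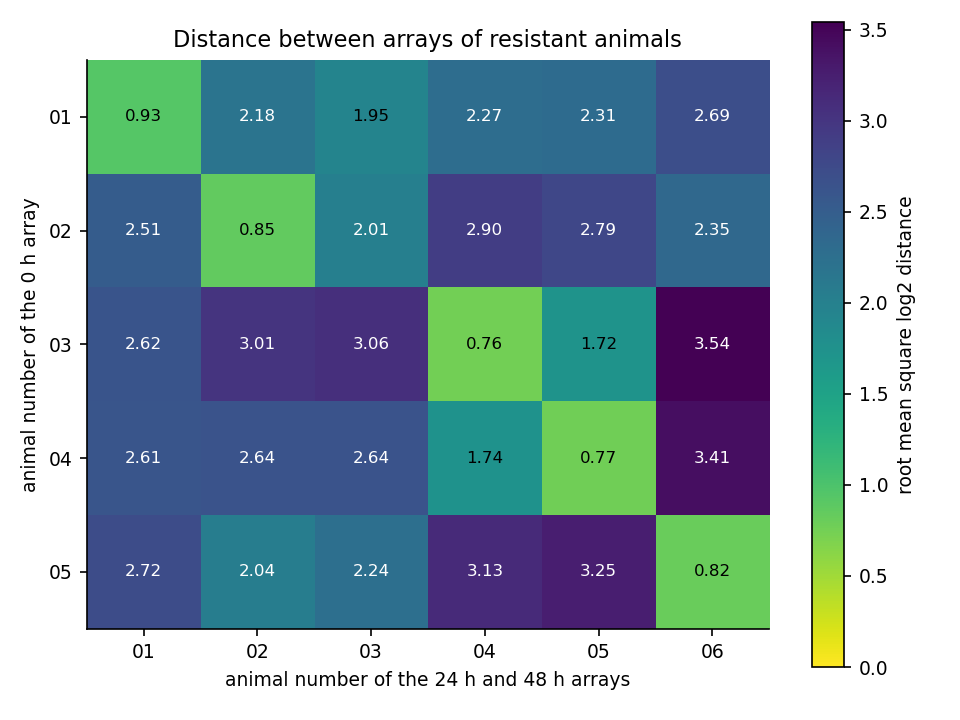
Distance (root mean square log2 difference over 100 probe sets) between each 0 h array of a resistant animal (rows) and the mean of the 24 h and 48 h arrays of each animal number (columns). The smallest distance lies on the same number for 01 and 02 and one number higher for 03, 04 and 05.

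In the group comparison 0 of 13809 probe sets passed an adjusted p of 0.05 (0% called), and the smallest limma adjusted p was 0.128. At an unadjusted p under 0.05 there were 1522 probe sets (11%), 683 higher and 839 lower at 48 h. For 273 probe sets (1.98%) the 5 arrays of one time did not overlap those of the other, 141 higher and 132 lower. With the animal as a term 84 probe sets passed with the numbers as given (0.608%) and 108 with the 3 numbers moved (0.782%), and 45 passed in both (0.326%), 20 higher and 25 lower. With the animal as a random block 2 probe sets passed as given (0.0145%) and 4 with the numbers moved (0.029%). COX7A1, higher, and KIF21A, lower, were the 2 genes that passed in all of these 4 fits.

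COX7A1 encodes a subunit of cytochrome c oxidase, the last enzyme of the respiratory chain, in the form used by heart and skeletal muscle. Its log2 signal at 0 h was 10.02, 9.47, 9.62, 9.18 and 9.13, and at 48 h it was 10.38, 10.40, 10.63, 10.80 and 10.005. The lowest 48 h array, 06, lay just under the highest 0 h array, 01, and the others did not overlap. The log2 difference was 0.96 ± 0.18 (SE), with limma adjusted p = 0.128 in the group comparison. It rose in the fit with animal terms, with adjusted p = 0.0262 as given and 0.0078 with numbers moved. With 1 array left out of the group comparison it passed without 0 h array 01 (adjusted p = 0.0187) or 48 h array 06 (0.0350). These are the arrays that overlapped, so leaving either out widens the difference, and it passed in no other such fit. Over the settings tried its limma adjusted p was as high as 0.326. At 24 h its level was 9.30 to 9.87, within the 0 h range.

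KIF21A encodes a kinesin, a motor that walks along microtubules and acts at the cell cortex. Its log2 signal was 10.12, 9.90, 10.27, 10.10 and 10.62 at 0 h and 8.63, 8.83, 9.46, 8.99 and 9.64 at 48 h. Every 48 h array lay below every 0 h array. The log2 difference was -1.09 ± 0.21 (SE), with adjusted p = 0.128 in the group comparison, 0.0181 with animal terms as given and 0.0136 with numbers moved. A second probe set of KIF21A differed by -0.80. At 24 h the level spanned 9.42 to 10.61, from below the 0 h range to its top.

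**Figure D2:**
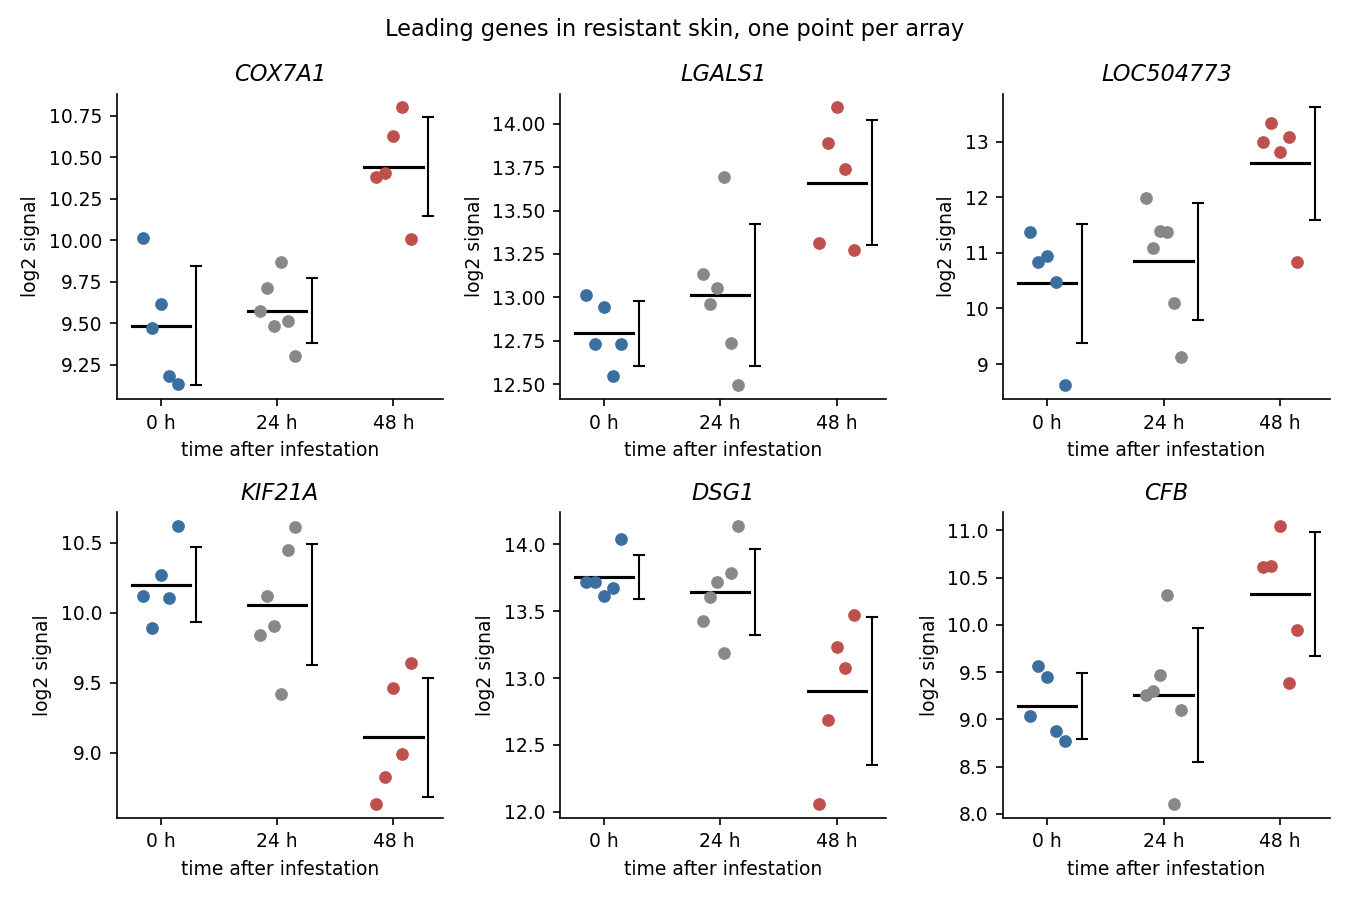
Log2 signal (vertical axes) of 6 genes in each array of resistant skin at 0 h (5 arrays), 24 h (6 arrays) and 48 h (5 arrays). Points are arrays, horizontal lines are means and bars show 1 SD. COX7A1, LGALS1, LOC504773 and CFB are higher and KIF21A and DSG1 lower at 48 h, while the 24 h means lie near those at 0 h.

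Among the 15 higher genes with the smallest p, 10 had arrays that did not overlap, against 69 of all 7016 genes (0.983%). Genes chosen by p in the same arrays overlap less by that choice, so the count is a description only. LGALS1 encodes galectin-1, a sugar-binding protein that dampens T cell and granulocyte responses. It read 13.01, 12.73, 12.95, 12.55 and 12.73 at 0 h and 13.31, 13.89, 14.09, 13.74 and 13.28 at 48 h, a log2 difference of 0.87 ± 0.21 (SE) with no overlap. It was not called between groups (adjusted p = 0.262) and rose in both fits with animal terms (adjusted p = 0.0296 and 0.0310). MVP, the major vault protein, read 9.79, 9.71, 9.50, 9.51 and 9.59 at 0 h and 10.41, 9.92, 10.12, 10.15 and 10.11 at 48 h. Its arrays did not overlap, the log2 difference was 0.52 ± 0.12 (SE), and it too rose in both fits with animal terms (adjusted p = 0.0331 and 0.0401).

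RAB34, a small GTPase that acts in vesicle traffic and phagosome maturation, read 10.94, 11.20, 10.88, 10.86 and 10.94 at 0 h and 11.43, 11.36, 11.54, 11.56 and 11.45 at 48 h. The 48 h arrays were tight and all above 0 h, with a log2 difference of 0.50 ± 0.12 (SE). KYAT3, an aminotransferase of kynurenine breakdown, read 9.45, 9.63, 9.76, 9.54 and 9.44 at 0 h and 10.07, 10.18, 10.12, 9.89 and 9.91 at 48 h. Its 24 h mean, 10.04 ± 0.25 (SD, n = 6), was already at the 48 h mean of 10.03 ± 0.13 (SD, n = 5). SFXN3, a mitochondrial amino acid carrier, read 8.95, 8.97, 9.15, 9.11 and 8.90 at 0 h and 9.68, 9.83, 9.87, 9.62 and 9.47 at 48 h. Its log2 difference was 0.68 ± 0.17 (SE), without overlap, and it rose in both fits with animal terms (adjusted p = 0.0296 and 0.0401).

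The next higher genes were of mixed kind. SELENOM, a selenoprotein of the endoplasmic reticulum (0.91 ± 0.23 SE), TSPAN4, a tetraspanin of migrating cells (0.78 ± 0.20 SE), and ILK, the kinase that links integrins to actin (0.52 ± 0.14 SE), had arrays that did not overlap. So had S100A4, a calcium-binding protein of motile cells (0.57 ± 0.15 SE), and AIF1, a marker of activated macrophages (0.88 ± 0.24 SE). CREG1, a lysosomal glycoprotein (0.50 ± 0.13 SE), and TPM2, a tropomyosin of muscle (1.14 ± 0.31 SE), overlapped in part. AIF1 and CREG1 passed in both fits with animal terms, and SELENOM (adjusted p = 0.0401) and S100A4 (0.0412) with moved numbers only.

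LOC504773 had the largest log2 difference of the 15, 2.16 ± 0.59 (SE). In the RefSeq annotation of assembly ARS-UCD2.0 it lies among the CC chemokine genes, near CCL3, CCL4 and CCL5, but its symbol gives no function. It read 11.37, 10.84, 10.95, 10.48 and 8.62 at 0 h and 12.99, 13.33, 12.81, 13.08 and 10.84 at 48 h. The 48 h array 06 stood well below the other 48 h arrays, and the 0 h array 05, which lies nearest to animal 06, stood well below the other 0 h arrays. It rose in both fits with animal terms (adjusted p = 0.0323 as given and 0.0401 with numbers moved).

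Among the 15 lower genes with the smallest p, 11 had arrays that did not overlap, against 68 of all 7016 genes (0.969%), and here too the choice by p favours this. HNRNPAB, an RNA-binding protein of the nucleus, read 12.27, 12.36, 12.31, 12.50 and 12.35 at 0 h and 11.69, 11.998, 11.82, 11.62 and 12.14 at 48 h. Its log2 difference of -0.50 ± 0.11 (SE) was not called between groups (adjusted p = 0.262) and fell in both fits with animal terms (adjusted p = 0.0331 and 0.0415). PUM3, an RNA-binding protein of the nucleolus, read 9.81, 9.81, 9.80, 10.09 and 10.13 at 0 h and 9.48, 9.53, 9.28, 9.63 and 9.59 at 48 h, with no overlap. CYTH2, an exchange factor for ARF GTPases, read 9.84, 9.73, 9.89, 9.87 and 9.86 at 0 h and 8.89, 9.36, 9.35, 8.98 and 9.42 at 48 h, a log2 difference of -0.64 ± 0.15 (SE). Its 0 h arrays were tight, every 48 h array lay below them, and it fell in both fits with animal terms (adjusted p = 0.0475 and 0.0442).

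ST14 encodes matriptase, a membrane protease needed for the epidermal barrier. Its log2 signal was 8.58, 8.55, 8.37, 8.67 and 9.002 at 0 h and 6.88, 7.61, 7.77, 8.17 and 8.08 at 48 h, a difference of -0.93 ± 0.22 (SE) and of -0.73 without 48 h animal 01. SLC35A3, the Golgi carrier of UDP-N-acetylglucosamine, read 10.30, 9.79, 10.40, 10.16 and 9.94 at 0 h and 9.65, 9.46, 9.33, 9.12 and 9.09 at 48 h. Neither gene's groups overlapped, and SLC35A3 fell in both fits with animal terms (adjusted p = 0.0463 and 0.0412). The other 9 differed by -0.40 to -0.64. They were F11R, the tight junction adhesion molecule JAM-A, FSCN1, an actin bundler, MRPS30, of the mitochondrial ribosome, the splicing factor subunits SF3B3 and SF3B4, ADPGK, a glucose kinase, the zinc finger gene ZNF131, ENC1, a kelch protein that binds actin, and IST1, of membrane scission. For ADPGK most of the difference was there at 24 h (-0.36 against -0.43 at 48 h), for ZNF131 almost none (-0.04 against -0.43). These comparisons share the 0 h arrays. Of the 9, SF3B3 passed in both fits with animal terms and ENC1 with moved numbers (adjusted p = 0.0421).

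**Figure D3:**
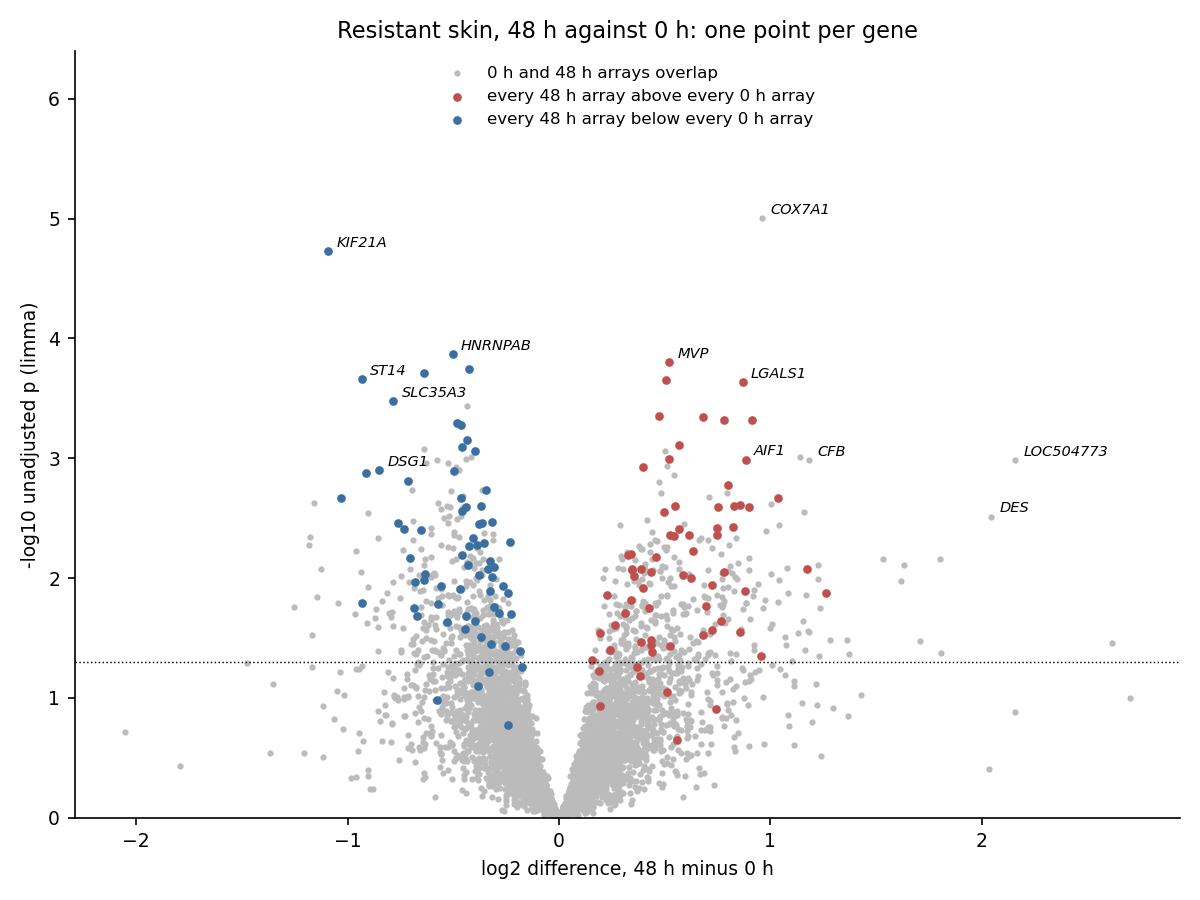
Log2 difference between 48 h and 0 h (horizontal axis) against -log10 of the unadjusted limma p (vertical axis), with 1 point for each of 7016 genes. Red and blue points are the 69 genes whose 48 h arrays all lie above and the 68 whose 48 h arrays all lie below the 0 h arrays, and the dotted line marks the unadjusted threshold of 0.05.

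Of the 45 probe sets that passed in both fits with animal terms, 31 had a gene symbol, 13 higher and 18 lower. In the group comparison 23 of the 45 had arrays that did not overlap, against 273 of all 13809 probe sets (1.98%), and these too were chosen by p in the same arrays. A probe set of CLDN1, the main claudin of epidermal tight junctions, fell from 10.58 to 9.02 on average (adjusted p = 0.0262 as given and 0.0179 with numbers moved). That probe set read 10.80, 9.67, 11.10, 10.67 and 10.64 at 0 h and 8.80, 8.59, 8.75, 9.49 and 9.45 at 48 h. Its groups did not overlap, while the brighter CLDN1 probe set overlapped (-1.17 ± 0.51 SE) and passed in neither fit. Among the others that fell were LRATD1 (-1.18, and -0.76 without 48 h animal 01), SLC2A5, a fructose transporter (-1.25), SF3B3 (-0.44), DSG1 (-0.85) and BPIFC, of a family of lipid-binding proteins (-1.03), each given as the group difference. The groups of SLC2A5 overlapped, and its 48 h mean of 6.36 lay under the array medians. HNRNPAB, CYTH2, SLC35A3, CDH3 and SQLE are described elsewhere, and the other 6 lower genes differed by -0.96 to -0.50. Among the higher ones a probe set of B2M, the light chain of class I molecules, rose from 13.46 to 14.03 (adjusted p = 0.0331 and 0.00105), and 3 probe sets of B2M were higher by 0.34 to 0.57. OTULINL rose as well (0.84, and 0.56 without 48 h array 02), though its 0 h mean of 7.11 was near the array median. A probe set without a gene symbol read 10.06, 9.91, 10.34, 9.35 and 9.31 at 0 h and 11.71, 11.33, 11.13, 10.56 and 10.70 at 48 h, without overlap. It passed in both fits with animal terms and in the random block with moved numbers (adjusted p = 0.0255).

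Genes of monocytes and macrophages were higher at 48 h. Of 14 measured, 14 were higher, 8 at an unadjusted p under 0.05 and 0 after adjustment, and 3 did not overlap. Among all 7016 genes 3321 were higher, 366 with p under 0.05 (5.22%) and 69 without overlap (0.983%). The median log2 difference of the list was 0.85, against -0.02 over all genes, and 0.69 without 48 h animal 01. In single 48 h arrays the median of the list lay 1.70, 1.03, 0.59, 0.42 and 0.47 above the 0 h mean, and in 0 h arrays between -0.57 and 0.51. Numbers 01 and 02 were highest, and the lowest 48 h arrays overlapped the highest 0 h array, 03. CD68, a lysosomal protein of macrophages, read 8.57, 9.03, 8.35, 8.13 and 7.76 at 0 h and 10.81, 9.63, 9.23, 8.60 and 8.79 at 48 h. Its difference was 1.04 ± 0.33 (SE), and 0.69 without 48 h animal 01. TYROBP, the signalling adaptor of myeloid receptors, differed by 1.23 ± 0.43 (SE) and passed with animal terms and moved numbers (adjusted p = 0.0136), not as given (0.0851). CD14, a receptor for bacterial lipopolysaccharide, MPEG1, a pore-forming protein of phagocytes, and FCGR1A, a receptor for IgG, differed by 0.88, 0.92 and 0.90, and a second probe set of CD14 by 0.26.

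Complement genes pointed the same way, with 17 of 17 higher and a median of 0.66, or 0.47 without 48 h animal 01 and 0.35 without 0 h array 05. Of these, 5 had an unadjusted p under 0.05 (5.22% of all genes higher), 0 passed after adjustment and 1 did not overlap (0.983% of all genes). CFB, factor B of the alternative pathway, read 9.04, 9.56, 9.45, 8.88 and 8.78 at 0 h and 10.62, 10.62, 11.05, 9.39 and 9.94 at 48 h. Only 48 h array 05 lay within the 0 h range. The difference of 1.18 ± 0.32 (SE) had adjusted p = 0.274 between groups, and CFB rose in both fits with animal terms (0.0462 and 0.0415). CFP, properdin, which stabilises the alternative pathway's enzyme, read 7.67, 7.56, 7.63, 7.51 and 7.74 at 0 h and 8.60, 9.02, 8.35, 7.77 and 8.27 at 48 h, without overlap. C1QA, C1QB and C1QC, the chains of the C1q recognition molecule that macrophages make, differed by 0.92, 1.23 and 0.92. All 3 overlapped, with 0 h array 05 lowest for each.

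**Figure D4:**
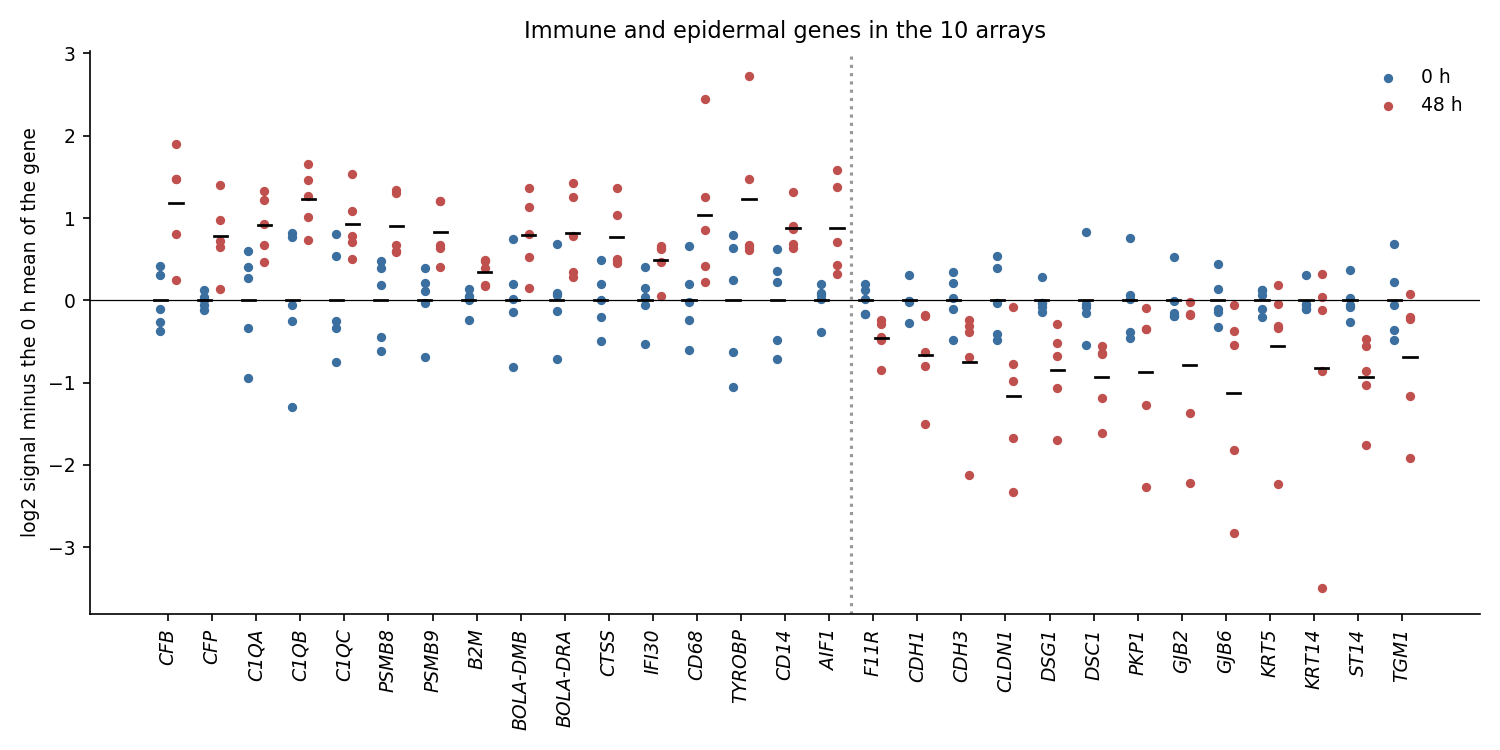
Log2 signal minus the gene's 0 h mean (vertical axis) for 16 immune genes, left of the dotted line, and 13 epidermal genes, right of it. Each point is an array, 5 at 0 h in blue and 5 at 48 h in red, and black lines are means. The immune genes lie above 0 at 48 h on average and the epidermal genes below it, with wide spread between the 48 h arrays.

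Class I antigen presentation genes were higher in 12 of 13 cases (median 0.32). Of these, 6 had an unadjusted p under 0.05 (5.22% of all genes higher), 0 passed after adjustment and 3 did not overlap (0.983% of all genes). The median was 0.33 without 48 h animal 01. PSMB8 and PSMB9, subunits of the immunoproteasome that cuts peptides for class I, differed by 0.90 ± 0.27 and 0.82 ± 0.26 (SE). PSMB8 read 7.85, 7.57, 7.76, 6.93 and 6.75 at 0 h and 8.67, 7.96, 8.04, 8.71 and 7.98 at 48 h, without overlap. Both rose with animal terms and moved numbers (adjusted p = 0.0310 and 0.0136), not as given (0.0869 and 0.0562). PSME1, a proteasome activator, was higher by 0.32 ± 0.11 (SE).

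Class II genes were higher in 7 of 10 cases (median 0.60), 6 with an unadjusted p under 0.05 (5.22% of all genes higher), 0 after adjustment and 0 without overlap. BOLA-DRA, the class II alpha chain, read 11.30, 11.27, 11.90, 11.09 and 10.50 at 0 h and 12.47, 12.64, 11.56, 11.49 and 12.001 at 48 h. The 48 h arrays 03 and 05 lay within the 0 h range. It passed with animal terms and moved numbers (adjusted p = 0.0415), not as given (0.0946). BOLA-DMB, which helps load class II molecules, and IFI30, a thiol reductase of antigen processing, differed by 0.80 and 0.49, and IFI30 passed with the numbers as given (adjusted p = 0.0439). CTSS, cathepsin S, which trims the class II invariant chain, differed by 0.77 ± 0.28 (SE).

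Interferon genes were higher with small differences. All 8 interferon-gamma targets measured were higher (median 0.35) and 13 of 16 type I interferon genes (median 0.29), with 0 at an unadjusted p under 0.05 in either list. Without 0 h array 05 the medians were 0.22 and 0.14. The interferon-gamma median was 0.52 without 48 h array 03, and the type I median was 0.19 without 48 h animal 01 and 0.20 without 48 h array 05. WARS1, an interferon-induced tRNA synthetase, differed by 0.39 ± 0.22 (SE), or 0.26 without 0 h array 05, and its 3 probe sets ranged from -0.10 to 0.39. IRF8, a transcription factor of myeloid cells, differed by 0.58 ± 0.32 (SE), or 0.33 without 48 h animal 01, and IFI44L and IFI44 by 0.57 and 0.79 at levels around the array median.

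Lymphocyte and neutrophil markers gave little, but most of those listed were not measured. Measured were 12 of 28 T and natural killer cell, 2 of 12 B and plasma cell and 5 of 21 neutrophil genes. T and natural killer cell genes were higher in 11 of 12 cases with a median of 0.16, which ran from -0.01 (without 48 h animal 01) to 0.39 (without 48 h array 03) as single arrays were left out. CD3D, part of the T cell receptor complex, differed by 0.27 ± 0.33 (SE) and NKG7, of cytotoxic granules, by 0.75 ± 0.40 (SE), and by 0.058 and 0.46 without 48 h animal 01. Of B and plasma cell genes 2 were measured, among them JCHAIN, the joining chain of secreted antibodies, at 0.81 ± 0.43 (SE), or 0.49 without 48 h animal 01, where its level was highest (13.42). Neutrophil genes had a median of 0.01 over 5 genes, which ran from -0.20 (without 0 h array 03) to 0.36 (without 0 h array 04). S100A8 was at -0.28 and S100A9 at 0.28, and without 48 h animal 01 S100A8 was at 0.14, while S100A9 was at 0.095 without 0 h array 03.

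Of 15 mast cell, basophil and eosinophil genes listed 5 were measured. All 5 were higher (median 0.83), 1 with an unadjusted p under 0.05 (5.22% of all genes higher). The median was 0.38 without 0 h array 05, 0.48 without 48 h array 02 and 0.23 without 48 h animal 01, whose own value was 2.40, next to 1.54, 0.27, 0.26 and 0.06 in the other 48 h arrays. TPSB2, a mast cell tryptase, read 6.88, 5.75, 7.73, 5.20 and 5.14 at 0 h and 8.64, 7.68, 7.17, 7.49 and 6.58 at 48 h. Several of these levels lie under the array median, and the groups overlapped. FCER1A, the alpha chain of the IgE receptor, differed by 0.84 ± 0.57 (SE), or 0.38 without 0 h array 05.

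Of 18 galectin and phagocytosis genes 16 were higher (median 0.26, and 0.28 without 48 h animal 01). Of these, 6 had an unadjusted p under 0.05 (5.22% of all genes higher), 0 passed after adjustment and 5 did not overlap (0.983% of all genes). In single 48 h arrays the median lay 0.16 to 0.39 above the 0 h mean, against -0.11 to 0.05 at 0 h, so the list's medians did not overlap. Besides LGALS1 and S100A4, the members included DAB2, an endocytic adaptor, which read 8.86, 8.65, 9.01, 8.24 and 8.18 at 0 h and 10.46, 10.03, 9.42, 9.18 and 9.05 at 48 h. It rose in both fits with animal terms (adjusted p = 0.0464 and 0.0421). VIM, vimentin, the intermediate filament of mesenchymal cells and leukocytes, differed by 0.42 ± 0.13 (SE) and passed with moved numbers (adjusted p = 0.0498). STAB1, a scavenger receptor, differed by 0.75 ± 0.24 (SE).

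Other inflammatory groups held single genes. In the oxidative burst list 9 of 12 genes were higher (median 0.36), and CYBA, part of the membrane core of phagocyte NADPH oxidase, read 10.45, 10.51, 10.11, 10.30 and 10.12 at 0 h and 11.02, 10.82, 10.68, 11.07 and 10.72 at 48 h. Its groups did not overlap (0.57 ± 0.18 SE), nor did those of GPX1, a peroxide-reducing enzyme (0.31 ± 0.13 SE). In eicosanoid synthesis, 7 of 10 genes were higher, led by ALOX5AP (0.98 ± 0.38 SE) and LTA4H (0.35 ± 0.14 SE), both needed to make leukotriene B4. ALOX5AP passed with moved numbers (adjusted p = 0.0421), not as given (0.137), and its group difference was 0.65 without 48 h animal 01. Of 19 lysosome genes 15 were higher (median 0.10, and up to 0.19 without 0 h array 02), among them LGMN, the protease legumain (0.47 ± 0.15 SE). Cytokine and chemokine genes split 8 higher and 6 lower. CXCL16 and CCL21, chemokines for T cells and dendritic cells, were higher without overlap (0.68 and 0.95), and CXCL14, made by resting epidermis, was lower (-0.47 ± 0.13 SE). Of 8 genes of the type 2 response 6 were higher, with CCL26, an attractant of eosinophils, at 0.78 ± 0.56 (SE) and IL13RA1, an IL-13 receptor chain, at 0.46 ± 0.21 (SE). Of 15 dendritic and Langerhans cell genes listed 5 were measured and 4 were higher (median 0.26). That median was 0.098 without 48 h animal 01, 0.73 without 48 h array 06 and -0.12 with the filter within the groups compared. CD86, the costimulatory molecule of dendritic cells, differed by 0.90 ± 0.37 (SE). FSCN1, the member with the smallest p, was the lower one (-0.46). Leukocyte adhesion genes were higher in 14 of 16 cases (median 0.31), with CD44, a hyaluronan receptor, at 0.31 ± 0.15 (SE), or 0.18 without 0 h array 02.

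**Figure D5:**
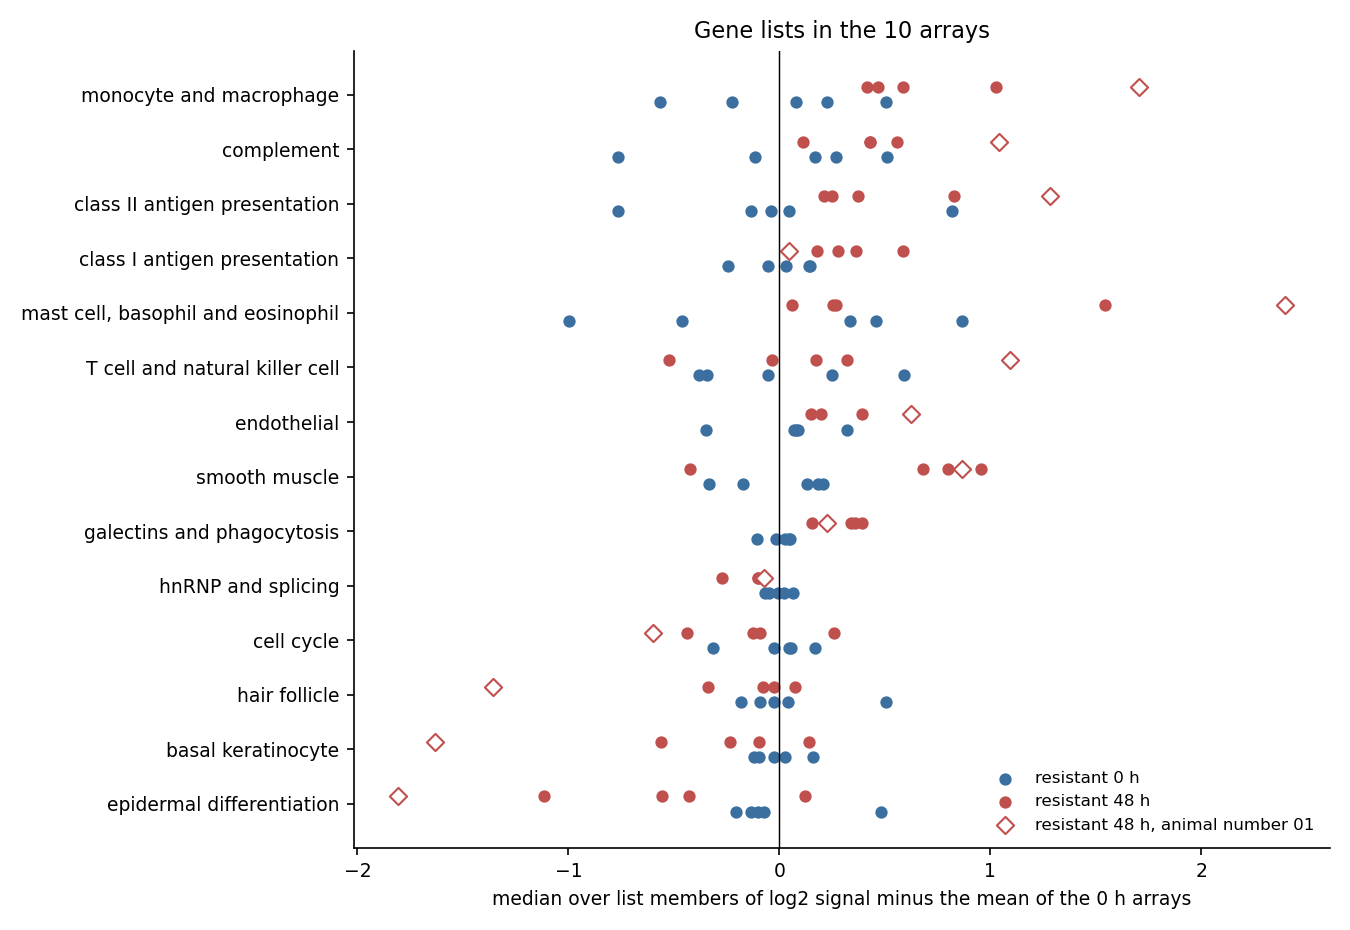
Median over the members of 14 gene lists (rows) of the log2 signal minus each gene's 0 h mean (horizontal axis), with 1 point per array. The 48 h array of animal number 01 (open diamond) has the highest value for macrophage, complement, class II, mast cell and T cell genes and the lowest for epidermal and hair follicle genes.

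Epidermal genes were lower at 48 h, most of all in animals 01 and 02. Of 32 epidermal differentiation genes listed only 6 were measured, and 5 of these were lower (median -0.77, and -0.48 without 48 h animal 01). Of the 5, 3 had an unadjusted p under 0.05 (6.49% of all genes lower), 0 passed after adjustment and 2 did not overlap (0.969% of all genes). DSG1, desmoglein 1, the desmosomal cadherin of the upper epidermis, read 13.72, 13.72, 13.62, 13.68 and 14.04 at 0 h and 12.06, 12.68, 13.23, 13.07 and 13.47 at 48 h. Every 48 h array lay below every 0 h array, and the difference was -0.85 ± 0.24 (SE), or -0.64 without 48 h animal 01. It fell in both fits with animal terms (adjusted p = 0.0331 and 0.0415). DSC1, desmocollin 1, its partner, read 10.98, 10.87, 10.94, 10.48 and 11.85 at 0 h and 9.83, 9.42, 10.38, 10.37 and 10.47 at 48 h, without overlap, and passed with the numbers as given (adjusted p = 0.0358) but not moved (0.0825). The summed signal of the list, in log2, was 14.17 to 14.74 at 0 h and 12.69 to 14.24 at 48 h, and that of the macrophage list 13.25 to 13.74 and 13.72 to 14.59. The part of a smaller epidermal share in the immune values was not tested. TGM1, the transglutaminase that crosslinks the cornified envelope, differed by -0.69 ± 0.32 (SE) and by -0.38 without 48 h animal 01.

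Genes of the basal layer were lower as well. Of 13 basal keratinocyte genes 12 were lower (median -0.56), but the median was -0.15 without 48 h animal 01. In single 48 h arrays the median was -1.63, -0.56, -0.10, -0.23 and 0.14, with most of the difference in animals 01 and 02. CDH3, P-cadherin, read 9.21, 10.05, 9.60, 9.72 and 9.90 at 0 h and 7.58, 9.31, 9.39, 9.01 and 9.46 at 48 h. It fell in both fits with animal terms (adjusted p = 0.0410 and 0.0421), while its group difference of -0.75 was -0.40 without 48 h animal 01. CDH1, E-cadherin, differed by -0.66 ± 0.25 (SE) and PKP1, a desmosomal plaque protein, by -0.87 ± 0.34 (SE), which was -0.52 without that array. The keratins KRT5 and KRT14 differed by -0.55 and -0.82, and by -0.13 and -0.15 without 48 h animal 01, and a second KRT5 probe set by 0.38. Of 9 wound keratinocyte genes 8 were lower (median -0.54, and -0.25 without that array or -0.34 without 0 h array 05). GJB6 and GJB2, the gap junction proteins connexin 30 and 26, read 8.72 and 10.04 in 48 h array 01 against 0 h means of 11.55 and 12.25. Their differences were -1.12 ± 0.40 and -0.79 ± 0.32 (SE), and -0.70 and -0.43 without that array. GJB6 passed with the numbers as given (adjusted p = 0.0464), not moved (0.0709).

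Skin appendages followed. Of 26 hair follicle genes listed only 5 were measured, and all 5 were lower (median -0.59, and -0.06 without 48 h animal 01). Among them were HOXC13, a regulator of hair keratins, at -0.94 ± 0.33 (SE) and LEF1, a mediator of Wnt signals, at -0.59 ± 0.31 (SE). All 9 sweat gland genes were lower (median -0.46, and -0.29 without that array), 0 with an unadjusted p under 0.05, and CA2, a carbonic anhydrase, differed by -0.96 ± 0.48 (SE), or -0.64 without that array. Sebaceous gland and lipid synthesis genes split 6 higher and 8 lower, with 2 each way at an unadjusted p under 0.05 (5.22% of all genes higher and 6.49% lower). FAR2, a fatty acyl reductase described further below, had the largest difference of this list (2.62). SQLE, squalene epoxidase of cholesterol synthesis, read 10.69, 10.54, 10.91, 10.80 and 11.53 at 0 h and 9.56, 9.81, 10.48, 10.45 and 10.51 at 48 h, without overlap, and fell in both fits with animal terms (adjusted p = 0.0331 and 0.0458). HMGCS1, an earlier enzyme of the same pathway, differed by -0.59 ± 0.29 (SE), or -0.35 without 48 h animal 01. Melanocyte genes varied more between animals than between times. PMEL, of melanosomes, read 5.82 in 0 h array 05, 6.43 in 48 h array 06 and at least 9.54 in the other arrays compared. In resistant 24 h array 06 it read 6.43.

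Most vessel and muscle genes were higher. Of 14 endothelial genes 13 were higher (median 0.34, and 0.13 without 0 h array 05). Of these, 3 had an unadjusted p under 0.05 (5.22% of all genes higher), 0 passed after adjustment and 1 did not overlap (0.983% of all genes). CLDN5, the claudin of endothelium, read 10.68, 10.40, 10.43, 10.05 and 9.55 at 0 h and 10.98, 11.04, 10.72, 10.99 and 10.85 at 48 h, without overlap. ENG, endoglin, differed by 0.70 ± 0.23 (SE) and passed with moved numbers (adjusted p = 0.0310), and PECAM1, an endothelial adhesion molecule, differed by 0.57 ± 0.25 (SE). All 12 smooth muscle genes were higher (median 0.56), 4 with an unadjusted p under 0.05 (5.22% of all genes higher) and 0 after adjustment. DES, desmin, the intermediate filament of muscle, read 10.50, 9.11, 9.15, 9.37 and 8.26 at 0 h and 12.50, 11.64, 11.73, 8.66 and 12.10 at 48 h. The 48 h array 05 lay within the 0 h range, and 4 of 5 lay above it (2.05 ± 0.63 SE). CNN1, calponin of smooth muscle, differed by 0.67 ± 0.22 (SE). Of 23 skeletal muscle genes listed 5 were measured and 4 were higher (median 1.004), 2 with an unadjusted p under 0.05 (5.22% of all genes higher) and 0 after adjustment. CKM, muscle creatine kinase, differed by 1.004 ± 0.36 (SE) and TCAP, a sarcomere protein, by 1.01 ± 0.42 (SE). The remaining skeletal muscle gene differed by -0.85, also at an unadjusted p under 0.05 (6.49% of all genes lower). The summed signal of the smooth muscle list, in log2, was 14.89 to 15.43 at 0 h and 14.87 to 16.08 at 48 h, and that of the skeletal muscle list 11.83 to 12.43 and 12.09 to 12.86. The part of biopsy depth or tissue share in these muscle values, or in that of COX7A1, was not tested.

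Connective tissue and clotting genes were mixed. Fibroblast genes were higher in 14 of 17 cases (median 0.17, and 0.31 without 48 h array 06) and collagen chains in 12 of 13 (median 0.20, and 0.36 without 48 h array 03), with COL6A2 at 0.88 ± 0.35 (SE) but mostly at levels under the array median. Among 11 matrix proteases and inhibitors 6 were higher, with MMP19, a matrix metalloprotease, at 1.002 ± 0.30 (SE) and MMP14, whose 0 h values ran from 3.32 to 7.84, at 1.80 ± 0.62 (SE). Of 16 clotting genes 9 were higher. F3, tissue factor, which starts clotting, read 10.93, 10.59, 10.56, 10.72 and 10.74 at 0 h and 9.79, 9.73, 9.97, 10.03 and 10.57 at 48 h, and passed with the numbers as given (adjusted p = 0.0464), not moved (0.0770). F13A1, the clot-stabilising transglutaminase that macrophages of the dermis also carry, was higher by 1.24 ± 0.49 (SE), with its 3 probe sets between 1.17 and 1.83. TFPI, the inhibitor of tissue factor, was higher by 1.36 ± 0.61 (SE). Adipocyte genes were lower in 7 of 11 cases (median -0.12), and the median ran from -0.30 (without 0 h array 03) to 0.056 (without 0 h array 04). LPL, lipoprotein lipase, was at 0.75 ± 0.41 (SE), or 0.41 without 48 h animal 01. All 5 nerve and Schwann cell genes were higher (median 0.26).

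Groups of general metabolism differed little. Other cytochrome c oxidase subunits gave much smaller differences than COX7A1, with COX4I1 at 0.24 ± 0.10 (0.15 without 48 h array 05) and COX6A1 at 0.32 ± 0.14 (SE), and 10 of 11 subunits were higher (median 0.17). For the rest of the respiratory chain 26 of 39 genes were higher (median 0.08, from -0.0051 without 48 h array 05 to 0.16 without 48 h animal 01), led by UQCRH of complex III (0.24 ± 0.10 SE). In glycolysis and the hypoxia response 11 of 21 genes were higher, among them LDHB, lactate dehydrogenase B (0.30 ± 0.10 SE), and ADM, adrenomedullin, a vessel dilator (1.13 ± 0.49 SE). All 51 cytosolic ribosome genes were higher (median 0.13), with RPL17 at 0.29 ± 0.09 and RPL5 at 0.19 ± 0.08 (SE), but the median was -0.01 after quantile normalization.

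Nuclear and proliferation genes were lower by small amounts. Of 35 hnRNP and splicing genes 27 were lower (median -0.10, and -0.16 without 48 h array 06), among them HNRNPAB and HNRNPC (-0.37 ± 0.11 SE). Of these, 6 had an unadjusted p under 0.05 (6.49% of all genes lower), 0 passed after adjustment and 4 did not overlap (0.969% of all genes). Of 28 cell cycle genes 27 were lower (median -0.24, and -0.15 without 48 h animal 01), with UBE2C, a ubiquitin enzyme of mitosis, at -0.63 ± 0.24 and BIRC5, survivin, at -0.42 ± 0.19 (SE). UBE2C passed with moved numbers (adjusted p = 0.0492). Of 12 kinesins 11 were lower (median -0.28), 3 with an unadjusted p under 0.05 (6.49% of all genes lower) and 0 after adjustment. KIF5B, a cargo motor and next after KIF21A by p, differed by -0.20 ± 0.10 (SE). In the list of stress and immediate early genes 21 of 25 were lower (median -0.30), with MYC at -0.59 ± 0.21 and HSPD1, a mitochondrial chaperonin, at -0.36 ± 0.16 (SE).

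The same lists at 24 h and in susceptible skin gave other values. In resistant skin at 24 h against 0 h, which shares the 0 h arrays, the medians were -0.10 for macrophage, -0.18 for complement, -0.09 for class II and -0.27 for epidermal differentiation genes, and 0 probe sets were called (652 at an unadjusted p under 0.05). In susceptible skin at 48 h (5 arrays) against 0 h (3 arrays) they were -0.33, -0.36, -0.41 and -0.21, with 0 called and 131 at an unadjusted p under 0.05. The difference between the 2 phenotypes' 48 h responses was itself tested, and 0 of 13809 probe sets were called (0% called), with 405 (2.93%) at an unadjusted p under 0.05. By that test COX7A1 differed by 1.03 ± 0.27 (SE), MMP19 by 1.51 ± 0.46, LOC504773 by 2.72 ± 0.90 and AIF1 by 1.04 ± 0.37, each with an unadjusted p under 0.05 and none after adjustment. For 8 of the 14 macrophage genes this difference had an unadjusted p under 0.05, against 234 of all 7016 genes, with a list median of 1.16. For DSG1 it was -0.70 ± 0.36 (SE), and for 0 of 6 epidermal differentiation genes it had an unadjusted p under 0.05. This test contains the resistant 48 h minus 0 h difference by which these genes were chosen. Its values are therefore a description and no separate support.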

How the data were processed

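RNA of skin biopsies was read on 30 bovine Affymetrix arrays. The deposited values are log2 signals that the authors made with MAS5, per the submitters' processing notes, with no version stated there. The linear signal had the same 2% trimmed mean, 500, in every array. These log2 values were used as deposited. After removal of 112 controls from the 24128 probe sets, 13809 of 24016 were kept that lay at or above the array median in at least 3 arrays. Probe sets had 1 gene symbol (13292), several (86) or none (10638), from the platform annotation. A gene stood for its kept probe set with the highest mean (7016 genes).

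The groups are phenotype by time. One mean for each of the 6 groups was fitted over the 30 arrays (limma 3.58.1, R 4.3.3, lmFit and eBayes with an intensity trend), and two-sided p-values over the kept probe sets received Benjamini-Hochberg adjustment (threshold 0.05). The replicate block, in which the animal is either a random effect or has its own fixed term, was fitted with the numbers as given and with 3 moved, since the paired numbers did not hold for 0 h arrays 03, 04 and 05. The correlation of deviations from the group means was 0.32, 0.07, -0.24 and -0.09 for the same numbers 01, 02, 03 and 05. After moving it was 0.11 for 05 and 0.56 for 06. The labels do not say that samples of 1 number were processed together. The fit of group means was tried on simulated data that held no differences between animals. That trial therefore says nothing about the fits with animal terms. Plots were drawn with matplotlib 3.10.9.

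The comparison, the 43 gene lists and the genes named were chosen with earlier results of these data known. Genes were named as the 15 with the smallest p in each direction, in each list the 3 members of smallest p and its defining markers, and the 10 probe sets in each direction that passed most clearly in both fits with animal terms. For some lists fewer than 3 are given. MPEG1, FCGR1A, STAB1, TFPI, HMGCS1, HNRNPC, RPL5, XIST, FGFBP1, KRT79, PTI and PLN were chosen after their values were seen. Alternatives tried were centring on the median, quantile normalization, other filters, fewer arrays in the fit, no trend, array weights, an offset of 16 on the linear signal, the mean of a gene's probe sets, the blocks and leaving out each array. Moving the numbers was added after seeing the data.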

Additional observations from a re-analysis of the deposited data

Results flagged for a closer look

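In 16 of 264 groups of 5 arrays tested, over the genes named and 5 array measures, 1 array stood apart from the other 4, and chance alone gives about 1 in 20. Values are log2 signal unless stated.

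The 48 h array 05 was low for muscle genes, with DES at 8.66 (the others 11.64 to 12.50) and TCAP at 7.14 (the others 8.995 to 9.58). The same array had an actin 3' minus 5' difference of 1.16, against 4.05 to 4.86 in the other 48 h arrays. The 48 h array 01 was low for keratinocyte genes, with KRT5 at 12.15 (the others 14.05 to 14.58) and CDH3 at 7.58 (the others 9.01 to 9.46). In the other 48 h arrays, array 06 was lowest for LOC504773 (10.84), array 03 was lowest for CCL26 (12.40), and array 02 was highest for OTULINL (9.08) and S100A9 (7.87).

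At 0 h, array 05 was highest for the keratinocyte genes DSG1 (14.04), KRT14 (14.32) and GJB2 (12.78) and lowest for WARS1 (10.35) and GPX1 (12.02). Array 02 was highest for RAB34 (11.20), and array 04 was lowest for CXCL16 (9.14).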

How the results depend on the processing

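The number of probe sets called was 0 in the group comparison and 0 with quantile normalization, centring, no filter, a filter within the groups compared, only the 10 or the 16 arrays, no trend, array weights or the offset. With the replicate block it was 2 (random) and 84 (fixed term) with the numbers as given, and 4 and 108 with the paired numbers moved. Leaving out 1 array gave 0 to 2. It was 1 without 0 h array 01 and 2 without 48 h array 06. The number of calls for the difference between phenotypes stayed at 0 wherever it was fitted. Of 127 genes named, 37 passed the threshold in at least 1 setting. Of all 7016 genes, 53 passed with the fixed term as given and 68 with the numbers moved. Many named genes were chosen by a small p or by passing both of these fits, so the 37 is a description only. Of the 127, 3 changed sign. PMEL and TYRP1 read 0.38 and 0.043 with the fixed term as given, and S100A8 ran from -0.58 (without 48 h array 05) to 0.14 (without 48 h array 01) as single arrays were left out. Of 42 list medians 11 changed sign in some setting. These were the T cell, B cell, neutrophil, dendritic cell, clotting, matrix protease, adipocyte, melanocyte, other respiratory chain, glycolysis and ribosome lists. The macrophage median ran from 0.68 (without 0 h array 05) to 0.98, the complement median from 0.35 to 0.83 and the epidermal differentiation median from -0.98 to -0.48, and the mast cell median was as low as 0.21 with the filter within the groups compared. The cause of these shifts was not tested. Probe sets near or under the array median, such as those of TPSB2, OTULINL, SLC2A5, COL6A2, MMP14 and IFI44, are limited by signal over background.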

Other observations

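FGFBP1, which encodes a carrier of fibroblast growth factors, FAR2, a fatty acyl reductase of wax synthesis, and KRT79, a keratin of the hair canal and sebaceous duct, were high or low together in the arrays of both phenotypes, before infestation too. FGFBP1 and KRT79 were chosen after their values were seen. At 0 h FGFBP1 read 2.61 to 6.59 in log2 signal. At 48 h it read 9.97, 10.25 and 10.37 in arrays 02, 03 and 06, but 2.09 and 5.50 in arrays 01 and 05. FAR2 read 9.73, 9.24 and 10.25 in the first 3 of these and 6.52 in each of the other 2, against 5.05 to 6.96 at 0 h. KRT79 read 6.67, 6.79 and 5.73 against 1.92 and 2.80, and 1.87 to 2.97 at 0 h. At 24 h FGFBP1 was high in arrays 01 (11.48), 02 (8.70), 03 (11.10) and 06 (10.61) and read 6.66 and 4.42 in arrays 04 and 05. In susceptible skin before infestation FGFBP1 read 10.70 and 10.63, FAR2 10.51 and 9.89 and KRT79 7.98 and 7.25 in arrays 10 and 11, against 5.24, 5.64 and 3.41 in array 09. The 48 h differences in resistant skin were 2.70 ± 1.59, 2.62 ± 1.18 and 2.16 ± 1.38 (SE), and none was called in limma. That of FGFBP1 was 4.09 without 48 h animal 01.

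PTI, the bovine pancreatic trypsin inhibitor, a serine protease inhibitor that bovine mast cells store, read 10.29, 8.53, 9.91, 8.38 and 7.86 at 0 h and 10.63, 10.32, 10.50, 10.94 and 10.25 at 48 h. The 48 h arrays were tight, and only array 06 lay under the highest 0 h array. The log2 difference was 1.53 ± 0.53 (SE). PLN, phospholamban, a regulator of the calcium pump of heart and smooth muscle, followed DES. It read 11.32, 10.22, 10.80 and 10.18 in 48 h arrays 01, 02, 03 and 06 and 7.88 in 48 h array 05, against 7.11 to 9.49 at 0 h.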
